A study of Mus musculus with 18 samples.

Results

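Coagulation and fibrinolysis genes were followed in mouse liver RNA-Seq as 39 genes, chosen by symbol from a count table of 55487 genes. They are the 3 fibrinogen chains, 11 clotting factors, 3 kallikrein-kinin proteins, 10 anticoagulants, 7 genes of fibrinolysis, 3 alpha-1 antitrypsins and 2 protease-activated receptors. All 39 were in the table. The livers came from 18 male C57BL/6J mice, 6 in each of 3 groups, bought at 7 weeks of age, with 1 library per mouse. Every mouse received an adeno-associated virus (serotype AAV8) 1 week before the diets began, and the diets ran for 16 weeks. CON-GFP mice received the GFP virus and a purified control diet. FPC-GFP mice received the GFP virus and the FPC diet, a Western-type diet with added fructose, palmitate and cholesterol, together with fructose-glucose water. FPC-LIPA mice received the FPC diet and a virus with human LIPA, the gene for lysosomal acid lipase. The vector carries the TBG promoter, which restricts expression to hepatocytes, and all groups had received vector, so no group shows an uninfected liver. No control diet group with LIPA was analysed here, so the LIPA comparison holds for the FPC diet.

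The liver makes most plasma clotting proteins. In coagulation, proteases activate each other in sequence until thrombin (from prothrombin, F2) cuts fibrinogen into fibrin. Antithrombin, heparin cofactor II, the protein C system and tissue factor pathway inhibitor restrain that sequence. In fibrinolysis, plasminogen is activated by the urokinase and tissue-type activators and digests fibrin. Hepatocytes secrete most of these proteins, while tissue factor, thrombomodulin, tissue factor pathway inhibitor, the plasminogen activators and the urokinase receptor are best known from endothelial cells, macrophages and stromal cells.

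Total counts per library ranged from 16632146 to 37739301. Levels are given in counts-per-million units (CPM), scaled by the TMM method over all 18 libraries, with the mean ± SD over 6 mice. Changes are log2 fold changes ± SE. The diet comparison and the LIPA comparison were fitted apart. A gene passed at an adjusted p under 0.05 in edgeR's quasi-likelihood test, and was called differentially expressed (DE) where it also changed at least 2-fold. The mouse gene Lipa measured 247 ± 33.7 CPM in CON-GFP, 340 ± 61.4 in FPC-GFP and 293 ± 51.2 in FPC-LIPA. That row counts the mouse gene, so it does not check the human transgene. Livers FPC-LIPA 36, 37 and 39 stood apart from the other FPC-LIPA livers. Ribosomal protein genes took 6.35% to 8.04% of their counts, against 2.11% to 2.88% in FPC-LIPA 31, 33 and 34 and 1.40% to 2.48% in the GFP groups. Summed hepatocyte marker levels (9 genes, all detected) ranged from 94082 to 134738 CPM in CON-GFP, 75266 to 106876 in FPC-GFP and 64122 to 95199 in FPC-LIPA, so markers of the labelled tissue were present in every library. In bulk tissue, fewer cells of a type and less RNA per cell cannot be told apart.

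Of all counts, the members together took 2.44% to 3.72% in CON-GFP mice. The share was 2.32% to 3.46% in FPC-GFP mice and 1.03% to 2.61% in FPC-LIPA mice. Within FPC-LIPA, the share was 1.03% to 1.53% in mice 36, 37 and 39 and 1.90% to 2.61% in the other 3. Per length, in transcripts-per-million units (TPM), the highest level in CON-GFP was that of Serpina1b, at 4986 ± 1045 TPM. Fgg at 3424 ± 652 TPM and Serpina1d at 3413 ± 572 TPM followed and lay within each other's SD. Serpina1a, Fga and Fgb came next, between 1930 and 2341 TPM. The highest level of the other roles was that of the kininogen Kng1 (1209 ± 175 TPM), plasminogen (Plg, 1087 ± 374 TPM), prothrombin (F2, 764 ± 202 TPM), protein C (Proc, 509 ± 119 TPM) and the thrombin receptor F2r (15.3 ± 3.04 TPM). The next step down was wide. From Serpine2 (3.84 ± 2.31 TPM) to F2rl1 (0.109 ± 0.0676 TPM), 11 members had under 4 TPM, and these hold F8, tissue factor (F3), Tfpi, Thbd, Procr, Plau, Plaur, Plat and F13a1 as well. In CON-GFP and in FPC-GFP, 29 members averaged 10 CPM or more. Their median coefficient of variation between mice was 16.0% in CON-GFP, with up to 65.6% for Serpine2. In FPC-GFP it was 13.1%, with up to 51.0% for Fga. Over the 30 such members in FPC-LIPA the median was 28.0%, with up to 54.8% for Serpina1d.

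**Figure D1:**
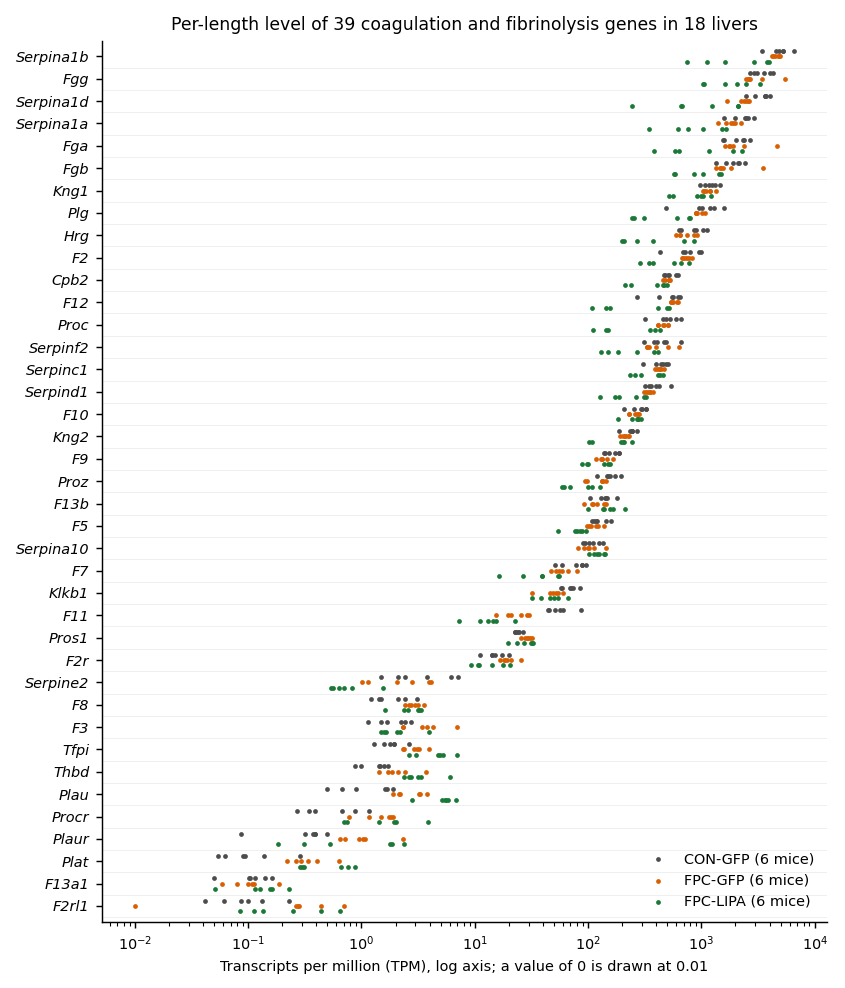
Level of each of the 39 members in each of 18 livers, in TPM on a log axis, with 6 mice per group and members ordered by their mean in CON-GFP. In their CON-GFP means the 28 members from Serpina1b to F2r stand well above the 11 members from Serpine2 to F2rl1. Points of single livers come close, with F11 at 7.22 TPM in FPC-LIPA 37 and Serpine2 at 7.12 TPM in CON-GFP 3. The FPC-LIPA points are spread more widely than those of the GFP groups.

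The first comparison, FPC-GFP against CON-GFP, asks how the diet altered the liver transcriptome. With it, F11 (factor XI) fell to about 0.328 of its control level, the genes of the urokinase receptor (Plaur), tissue-type plasminogen activator (Plat) and urokinase (Plau) rose, and 16 further liver-made members fell by less than 2-fold. Of 37 members tested, 20 passed, with 17 lower and 3 higher. The other 2, F13a1 and F2rl1, did not pass the filter on low counts. Over all 14307 genes tested, 23.8% passed, 10.9% lower and 12.9% higher. The members' median log2 fold change was -0.39, against 0.012 for all genes. DE calls were made for F11, Plaur and Plat, 3 of 37 members, near the 7.20% of all genes. In 12 members the CON-GFP and FPC-GFP mice did not overlap, against 10.4% of all genes.

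The direction went with the level, by a division at 20 CPM that was chosen after the values were seen. Of the 28 members that averaged 20 CPM or more over the 3 groups, 27 had negative values (median -0.44), and 17 passed, each of them lower. Hepatocyte markers were negative as well in 9 of 9, with a median of -0.15, and 2 of them passed, lower, and the part of a change in hepatocyte RNA as a whole was not tested. Of the 9 tested members below it, 8 had positive values (median 0.66) and 3 passed, each of them higher. Serpine2 was the 1 low-level member with a negative value. Scaled by library size alone, the median of all genes moved from 0.012 to 0.21. There 14 members passed, 6 higher and 8 lower, beside 28.5% of all genes. With all 18 libraries in one fit, 6 members passed, beside 9.04% of all genes.

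**Figure D2:**
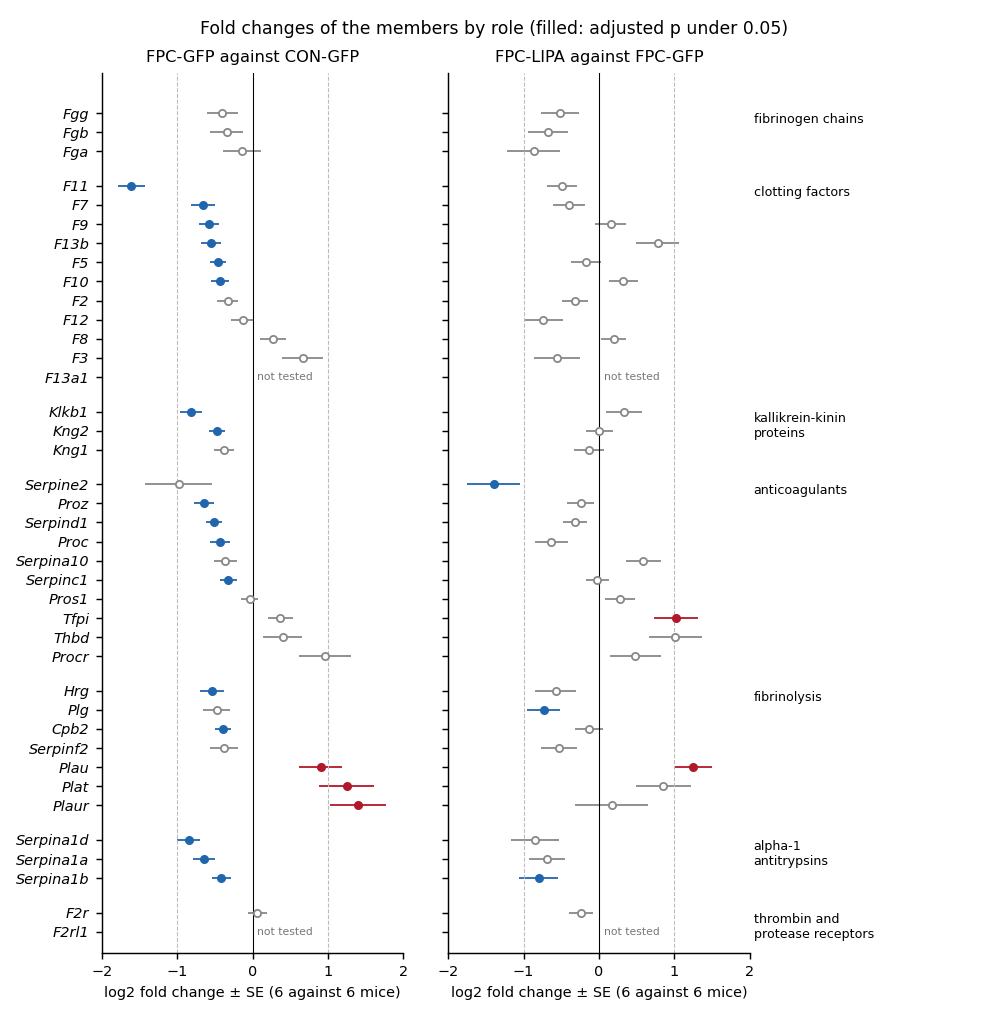
Log2 fold change ± SE of each member by role, for FPC-GFP against CON-GFP (left) and FPC-LIPA against FPC-GFP (right), with 6 mice per group, filled where the adjusted p was under 0.05 and with dashed lines at 2-fold. On the left 17 members pass below 0 and 3 above it, and on the right 3 pass below and 2 above, with wider errors.

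The fibrinogen chains are shown first. Fga, Fgb and Fgg lie next to each other on chromosome 3 and encode the alpha, beta and gamma chains of one hexameric protein. The 250 bases before the RefSeq start of each gene are printed because the chains form 1 protein, and that of F11 because it had the largest change with diet. Capitals mark matches, on either strand, to the HNF1 letters GTTAAT, the C/EBP motif TTGCNNAA, the STAT motif TTCNNNGAA and the interleukin-6 type II element CTGGGAA. In build GRCm38.p6, Fga is at chr3:83025903-83026152 on the plus strand, Fgb at chr3:83049864-83050113 on the minus strand, Fgg at chr3:83007474-83007723 on the plus strand and F11 at chr8:45262032-45262281 on the minus strand.
Fga: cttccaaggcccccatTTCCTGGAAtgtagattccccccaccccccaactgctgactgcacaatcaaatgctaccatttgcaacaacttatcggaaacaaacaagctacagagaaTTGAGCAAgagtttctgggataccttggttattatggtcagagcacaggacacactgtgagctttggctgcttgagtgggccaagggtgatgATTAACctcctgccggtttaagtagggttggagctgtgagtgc
Fgb: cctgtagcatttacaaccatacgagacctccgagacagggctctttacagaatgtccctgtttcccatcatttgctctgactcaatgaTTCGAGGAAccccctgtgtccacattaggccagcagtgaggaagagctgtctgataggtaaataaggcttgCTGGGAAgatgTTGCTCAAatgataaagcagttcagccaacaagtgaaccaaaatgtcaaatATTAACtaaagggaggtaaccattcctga
Fgg: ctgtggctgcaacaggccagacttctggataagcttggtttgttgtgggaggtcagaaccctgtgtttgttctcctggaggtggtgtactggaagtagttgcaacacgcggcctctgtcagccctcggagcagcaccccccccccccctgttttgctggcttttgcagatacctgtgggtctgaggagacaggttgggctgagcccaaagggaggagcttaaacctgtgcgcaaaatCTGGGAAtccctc
F11: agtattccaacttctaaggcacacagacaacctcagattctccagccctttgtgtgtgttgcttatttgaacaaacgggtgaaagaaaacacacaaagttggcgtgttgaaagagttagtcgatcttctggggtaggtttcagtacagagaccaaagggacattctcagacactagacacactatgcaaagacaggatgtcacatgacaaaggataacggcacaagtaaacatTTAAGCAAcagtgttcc

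The Fga window holds the HNF1 letters 43 to 38 bases before the start, the C/EBP letters 135 to 128 bases before it and the STAT letters 234 to 226 bases before it. In the Fgb window the HNF1 letters lie 29 to 24, the C/EBP letters 80 to 73, the interleukin-6 letters 91 to 85 and the STAT letters 162 to 154 bases before the start. Fgg holds the interleukin-6 letters 13 to 7 bases before the start, and F11 the C/EBP letters 17 to 10 bases before it. For 31 members with a promoter in the RefSeq table, the 250 bases before the start were searched. Of these 31, 7 held GTTAAT, or 22.6%, against 6.43% of all 32851 promoter entries. They were F13b, Fga, Fgb, Proz, Serpina1a, Serpina1b and Serpina1d, and the Serpina1 genes among them are near-identical copies that were each counted. A member counted once if any of its entries held the letters, so the shares of members and of entries differ in unit. TTGCNNAA was found in 11 members, Serpina1b and Serpina1d among them (35.5%, against 9.56%), TTCNNNGAA in 4 (12.9%, against 7.02%) and CTGGGAA in 4 (12.9%, against 9.1%). The HNF4 letters CAAAGTCCA were in none of the 31 and in 0.384% of all promoters, and the TATA box letters TATAAA in 2 (6.45%, against 12.4%). These are matches of letters, not binding sites.

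Fgg ranged from 2847 to 4498 CPM in CON-GFP (median 3488, mean 3557 ± 637), from 1959 to 4633 in FPC-GFP (median 2277, mean 2684 ± 1011) and from 1264 to 2847 in FPC-LIPA (median 1731, mean 1819 ± 574). The diet groups overlapped, and the log2 fold change with diet was -0.40 ± 0.20 (adjusted p = 0.157). Fgb gave -0.35 ± 0.22 (adjusted p = 0.265) and Fga -0.14 ± 0.25 (adjusted p = 0.702). These values turned on 1 liver. FPC-GFP 11 had the highest level of each chain in the study, with 5684 CPM of Fga and 5405 CPM of Fgb, where the next FPC-GFP mouse had 2940 and 2835 CPM. Without it Fgb (-0.63 ± 0.15, adjusted p = 0.00857) and Fgg (-0.63 ± 0.15, adjusted p = 0.0102) passed, while Fga did not. The ratio of Fgg to Fgb stayed narrower than that of Fga to Fgb. Fgg over Fgb was between 0.841 and 1.22 in the 18 livers. Fga over Fgb was between 0.748 and 1.05 in the GFP groups and between 0.528 and 1.21 in FPC-LIPA. In FPC-LIPA against FPC-GFP the chains had values of -0.87 ± 0.35 (Fga), -0.68 ± 0.26 (Fgb) and -0.51 ± 0.26 (Fgg), with adjusted p values of 0.0822, 0.0740 and 0.143. Fga was 711 to 1056 CPM in FPC-LIPA 36, 37 and 39 and 1303 to 2833 CPM in FPC-LIPA 31, 33 and 34. Over the alternatives its value ranged from -1.13 to -0.41.

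**Figure D3:**
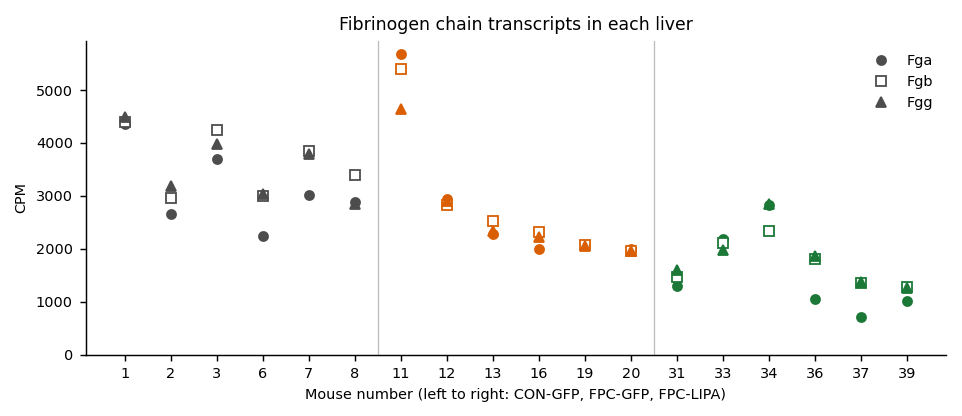
CPM of the 3 fibrinogen chains in each of 18 livers, by mouse number, with circles for Fga, open squares for Fgb and triangles for Fgg. Fgb and Fgg stand close together within a liver, and FPC-GFP 11 is highest with 5684 CPM of Fga. Fga is below both other chains in FPC-LIPA 31, 36, 37 and 39, FPC-GFP 13 and 16 and CON-GFP 1, 2, 3, 6 and 7.

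Among clotting factors, 6 of 10 tested fell with diet and none rose, with a median of -0.45. F11, a zymogen of the contact pathway that activates factor IX, measured 46.8 to 82.1 CPM in CON-GFP (median 66.9, mean 63.8 ± 14.2) and 14.5 to 26.4 CPM in FPC-GFP (median 21.3, mean 20.8 ± 4.96). The highest FPC-GFP mouse was below the lowest CON-GFP mouse, and the log2 fold change was -1.61 ± 0.18 (adjusted p = 0.000119). This call held under every alternative run, with values from -1.69 to -1.41. F11 was 10.05 to 18.7 CPM in FPC-LIPA (median 13.9), with -0.49 ± 0.19 against FPC-GFP (adjusted p = 0.0773).

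F7, the protease that pairs with tissue factor, ranged from 51.5 to 88.6 CPM in CON-GFP (median 72.9, mean 70.8 ± 15.2) and from 32.2 to 56.4 CPM in FPC-GFP (median 44.0, mean 44.6 ± 8.82). The groups overlapped, with a change of -0.66 ± 0.16 (adjusted p = 0.0103). Factor IX (F9) measured 178 to 291 CPM in CON-GFP (median 211, mean 224 ± 41.7) and 131 to 170 CPM in FPC-GFP (median 148, mean 149 ± 12.9), a change of -0.58 ± 0.13 (adjusted p = 0.00610) with no overlap. For F13b, the carrier subunit of factor XIII, CON-GFP mice had 140 to 206 CPM (median 176, mean 177 ± 22.1) and FPC-GFP mice 94.0 to 144 CPM (median 121, mean 120 ± 19.9). They overlapped slightly, and the change was -0.56 ± 0.13 (adjusted p = 0.00895). The cofactor F5 was 410 to 502 CPM in CON-GFP (median 465, mean 464 ± 35.3) and 292 to 389 CPM in FPC-GFP (median 325, mean 337 ± 35.4), without overlap, at -0.46 ± 0.11 (adjusted p = 0.00761). F10, the protease that forms thrombin, was also lower in every FPC-GFP mouse than in any CON-GFP mouse, at -0.44 ± 0.12 (adjusted p = 0.0168).

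Prothrombin did not pass. F2 ranged from 1142 to 2064 CPM in CON-GFP (median 1834, mean 1720 ± 349), from 1135 to 1552 in FPC-GFP (median 1377, mean 1359 ± 141) and from 826 to 1484 in FPC-LIPA (median 961, mean 1051 ± 239). Its change with diet was -0.33 ± 0.14 (adjusted p = 0.0991), and without CON-GFP 2, the lowest control, it was -0.42 ± 0.12 (adjusted p = 0.0253). F12, which starts the contact pathway, had -0.13 ± 0.15 (adjusted p = 0.553), F8 0.27 ± 0.17 (adjusted p = 0.260, and 0.0487 without CON-GFP 6) and tissue factor 0.66 ± 0.27 (adjusted p = 0.0864). F13a1, the catalytic subunit of factor XIII, had at most 0.841 CPM in any liver and was not tested.

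Several members lie next to each other in the genome. F7, F10 and Proz lie in a row on chromosome 8, with 1499 bases between F7 and F10 and 4238 between F10 and Proz, and each of them fell with diet. F11 and the prekallikrein gene Klkb1 lie 4658 bases apart elsewhere on chromosome 8 and fell as well. On chromosome 16, Hrg and Kng2 fell, while their neighbour Kng1 missed the threshold.

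The kallikrein-kinin proteins link the contact pathway to bradykinin, and 2 of 3 fell. Klkb1, the zymogen of plasma kallikrein, measured 145 to 208 CPM in CON-GFP (median 185, mean 181 ± 23.6) and 67.7 to 118 CPM in FPC-GFP (median 110, mean 102 ± 20.2). No FPC-GFP mouse reached the lowest CON-GFP mouse, and the change was -0.82 ± 0.15 (adjusted p = 0.00182). Kng2, a kininogen gene, measured 281 to 361 CPM in CON-GFP (median 326, mean 323 ± 31.0) and 209 to 260 CPM in FPC-GFP (median 225, mean 232 ± 23.9), at -0.47 ± 0.10 (adjusted p = 0.00536) with no overlap. Kng1 was 1596 to 2309 CPM in CON-GFP (median 1986, mean 1959 ± 313), 1217 to 1839 CPM in FPC-GFP (median 1477, mean 1499 ± 207) and 971 to 1835 CPM in FPC-LIPA (median 1189, mean 1318 ± 337). With diet it changed by -0.38 ± 0.13 (adjusted p = 0.0510), and it passed in 7 of 21 alternatives, among them those without CON-GFP 6 (adjusted p = 0.0433), CON-GFP 7 (adjusted p = 0.0294) or FPC-GFP 13 (adjusted p = 0.0370). The 2 kininogen transcripts share 2.14% (Kng1) and 2.1% (Kng2) of their 150-base windows exactly. In FPC-LIPA against FPC-GFP none of the 3 passed, with values of 0.33 ± 0.24 (Klkb1), 0.01 ± 0.18 (Kng2) and -0.13 ± 0.20 (Kng1).

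**Figure D4:**
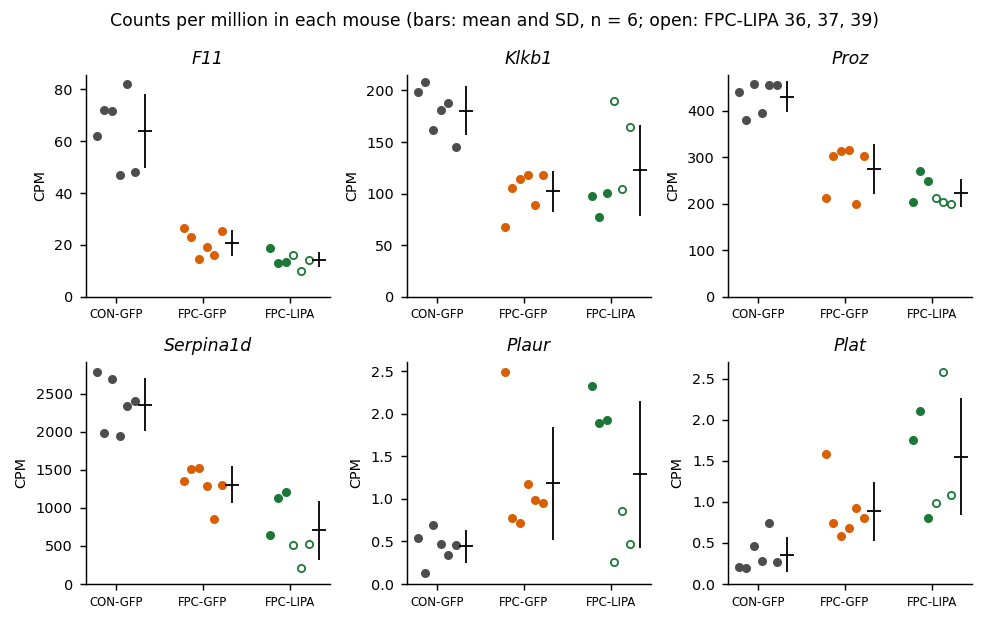
CPM in each mouse for 4 members that fell with diet (F11, Klkb1, Proz and Serpina1d) and 2 that rose (Plaur and Plat), with the mean and SD of 6 mice beside each group. In F11, Klkb1, Proz and Serpina1d no FPC-GFP mouse reaches the CON-GFP range, in Plaur every FPC-GFP mouse is above it, and Plat overlaps.

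Among anticoagulants, 4 of 10 fell with diet and none rose (median -0.34). Proz, the vitamin K-dependent cofactor of the factor Xa inhibitor Serpina10, measured 380 to 457 CPM in CON-GFP (median 447, mean 431 ± 33.8) and 200 to 315 CPM in FPC-GFP (median 303, mean 275 ± 53.2). The groups were apart, with -0.64 ± 0.13 (adjusted p = 0.00397). Serpind1, or heparin cofactor II, measured 375 to 492 CPM in CON-GFP (median 419, mean 428 ± 44.2) and 260 to 336 CPM in FPC-GFP (median 298, mean 300 ± 29.4), again without overlap, at -0.51 ± 0.11 (adjusted p = 0.00410). Proc was 451 to 709 CPM in CON-GFP (median 664, mean 620 ± 105), 377 to 521 CPM in FPC-GFP (median 456, mean 456 ± 55.8) and 171 to 406 CPM in FPC-LIPA (median 266, mean 286 ± 105). Its change with diet was -0.44 ± 0.13 (adjusted p = 0.0254), and the call was lost without CON-GFP 1 (adjusted p = 0.0568) or FPC-GFP 19 (adjusted p = 0.0614). Antithrombin (Serpinc1) changed by -0.32 ± 0.11 (adjusted p = 0.0442), the weakest of the calls. It was lost when any 1 of 10 mice was left out, all but CON-GFP 2 and FPC-GFP 12, with an adjusted p of up to 0.0965.

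The other anticoagulants did not pass. Serpina10 had -0.36 ± 0.15 (adjusted p = 0.0932, and 0.0254 without FPC-GFP 11), and Pros1, the cofactor protein S, had -0.04 ± 0.11 (adjusted p = 0.804). The endothelial protein C receptor Procr had 0.96 ± 0.34 (adjusted p = 0.0531, 0.0230 without CON-GFP 6 and 0.0367 without FPC-GFP 16). Tfpi had 0.37 ± 0.16 (adjusted p = 0.115), thrombomodulin (Thbd) 0.40 ± 0.26 (adjusted p = 0.273) and Serpine2, or protease nexin 1, -0.98 ± 0.44 (adjusted p = 0.117).

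Fibrinolysis genes went in both directions with diet. Of the 7, 3 rose and 2 fell. Plaur, the urokinase receptor, measured 0.130 to 0.690 CPM in CON-GFP (median 0.470, mean 0.442 ± 0.190) and 0.721 to 2.49 CPM in FPC-GFP (median 0.966, mean 1.18 ± 0.661). Every FPC-GFP mouse was above every CON-GFP mouse, and the change was 1.39 ± 0.37 (adjusted p = 0.0148). Plat was 0.195 to 0.750 CPM in CON-GFP (median 0.271, mean 0.359 ± 0.213) and 0.584 to 1.59 CPM in FPC-GFP (median 0.770, mean 0.886 ± 0.362), with overlap, at 1.25 ± 0.37 (adjusted p = 0.0238). Plau ranged from 0.629 to 2.12 CPM (median 1.36, mean 1.37 ± 0.582) in CON-GFP and from 1.80 to 3.30 CPM in FPC-GFP (median 2.66, mean 2.60 ± 0.721). Its groups overlapped too, with 0.90 ± 0.28 (adjusted p = 0.0318). These are low levels, from 2 to 18 counts of Plaur and 3 to 26 counts of Plat per CON-GFP library, so counting error is part of the spread, and the calls were less firm than that of F11. The Plat call was lost without CON-GFP 1 (adjusted p = 0.0516), CON-GFP 6 (adjusted p = 0.0510) or FPC-GFP 11 (adjusted p = 0.0577), and that of Plau without CON-GFP 1, 2 or 3 or FPC-GFP 13, 16 or 19 (adjusted p from 0.0569 to 0.0713).

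Markers of monocytes and macrophages moved in the same direction as these 3 genes. Of 10 listed markers, all tested, 7 passed higher with diet, and their summed level was 60.8 to 133 CPM in CON-GFP, 164 to 430 in FPC-GFP and 483 to 837 in FPC-LIPA. Of 10 endothelial markers 5 passed higher, with summed levels of 236 to 362, 331 to 391 and 335 to 481 CPM. Kupffer cell markers (6 of 8 higher) summed to 262 to 435, 438 to 613 and 431 to 877 CPM, and stellate cell and fibroblast markers (5 of 10 higher) to 190 to 296, 256 to 336 and 342 to 1000 CPM. Cholangiocyte markers (1 of 5 tested higher) summed to 28.3 to 48.5, 42.2 to 107 and 36.6 to 190 CPM. The highest stellate and cholangiocyte sums were those of FPC-LIPA 37 alone, and the next FPC-LIPA mice had 489 and 106 CPM. No marker of the monocyte, endothelial, Kupffer or stellate lists was at 0 throughout. Platelet markers summed to 3.63 to 4.74, 3.30 to 5.33 and 4.77 to 8.04 CPM, with Gp1bb at 0 in every library, and neither of the 2 that were tested passed. The part of these cells in the 3 increases was not tested.

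Hrg and Cpb2 were the fibrinolysis genes that fell. Hrg, a plasma glycoprotein that binds plasminogen and heparin, was 622 to 1051 CPM in CON-GFP (median 889, mean 858 ± 157) and 433 to 706 CPM in FPC-GFP (median 583, mean 586 ± 107), at -0.54 ± 0.15 (adjusted p = 0.0209) with overlap. Cpb2, the carboxypeptidase that protects fibrin from lysis, fell by 0.39 on the log2 scale (SE 0.11, adjusted p = 0.0176) with no overlap. Serpinf2, the plasmin inhibitor, had -0.38 ± 0.18 (adjusted p = 0.144, and 0.0322 without FPC-GFP 11). Plasminogen itself ranged from 1032 to 2492 CPM in CON-GFP (median 2113, mean 1964 ± 546) and from 1204 to 1641 CPM in FPC-GFP (median 1388, mean 1402 ± 140). Its change with diet was -0.48 ± 0.18 (adjusted p = 0.0602). Without CON-GFP 2, whose 1032 CPM was the lowest of the controls, it passed at -0.61 ± 0.13 (adjusted p = 0.00591).

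The 3 alpha-1 antitrypsins, serpins that inhibit neutrophil elastase and other serine proteases, all fell with diet. They are near-identical copies on chromosome 12, which limits how well their reads can be told apart. The coding sequences, aligned over 1242 bases, differ at 61 positions (4.91%), and 12 of these lie in the 60 bases that encode the reactive centre loop, the bait that sets which protease is inhibited. That stretch is printed (GRCm38, minus strand of chromosome 12, coding bases 1090 to 1149 of the aligned frames) with the differing positions in capitals. Its place is chr12:103853768-103853827 for Serpina1a, chr12:103728335-103728394 for Serpina1b and chr12:103763773-103763832 for Serpina1d, each within 1 exon.
Serpina1a: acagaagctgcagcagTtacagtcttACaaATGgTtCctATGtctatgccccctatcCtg
Serpina1b: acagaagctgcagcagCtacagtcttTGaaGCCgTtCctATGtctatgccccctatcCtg
Serpina1d: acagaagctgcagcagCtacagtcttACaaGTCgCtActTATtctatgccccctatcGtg

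Of the 150-base windows of their transcripts, 40.7% in Serpina1a, 16.4% in Serpina1b and 20.2% in Serpina1d occur exactly in another member of the family. The annotated interval of Serpina1b also spans Serpina1d. How reads that fit several copies were counted is not given in the sources used here, so the division between copies is uncertain. Serpina1c and Serpina1e share windows with them too. The sum of all 5 copies was 11573 to 18034 CPM in CON-GFP, 6542 to 10788 in FPC-GFP and 2037 to 7662 in FPC-LIPA, so the diet groups did not overlap in it. Serpina1d measured 1941 to 2790 CPM in CON-GFP (median 2372, mean 2358 ± 351) and 849 to 1525 CPM in FPC-GFP (median 1323, mean 1304 ± 246), a change of -0.85 ± 0.15 (adjusted p = 0.00163). Serpina1a measured 1675 to 2518 CPM in CON-GFP (median 2184, mean 2118 ± 354) and 940 to 1559 CPM in FPC-GFP (median 1419, mean 1343 ± 220), at -0.65 ± 0.15 (adjusted p = 0.00656). Neither overlapped between the groups. Serpina1b overlapped slightly, with 4747 to 6816 CPM in CON-GFP (median 6071, mean 5927 ± 830) and 3768 to 4868 CPM in FPC-GFP (median 4616, mean 4424 ± 493), at -0.42 ± 0.12 (adjusted p = 0.0245). That call was lost without CON-GFP 1 (adjusted p = 0.0552) or FPC-GFP 19 (adjusted p = 0.0568).

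Of the receptors, F2r (PAR1, the main thrombin receptor of many cells) ranged from 19.8 to 30.5 CPM in CON-GFP (median 25.3, mean 25.3 ± 3.97), from 23.0 to 32.0 in FPC-GFP (median 25.2, mean 26.2 ± 3.43) and from 17.0 to 25.3 in FPC-LIPA (median 21.6, mean 21.4 ± 3.40). Neither comparison passed, at 0.06 ± 0.13 (adjusted p = 0.749) with diet and -0.24 ± 0.16 (adjusted p = 0.265) with LIPA. F2rl1 (PAR2) had at most 0.706 CPM in any liver and was not tested.

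The second comparison, FPC-LIPA against FPC-GFP, asks what hepatocyte LIPA altered on the FPC diet. Urokinase (Plau) and Tfpi rose, and Serpine2, plasminogen and Serpina1b fell. These 5 of 37 tested members passed, while 21.2% of all 14620 genes did, 14.4% higher and 6.87% lower. DE calls went to Plau, Tfpi and Serpine2, 3 of 37, against 11.4% of all genes. Plau and Plg were the members whose groups did not overlap, against 7.66% of all genes. The share of members passing was 13.5%, below that of all genes, and their median log2 fold change was -0.24, against 0.041. A further 11 members had an adjusted p between 0.05 and 0.10, and 18 had an unadjusted p under 0.05. By DESeq2, 13 members passed, beside 30.2% of all genes. The comparison shares the FPC-GFP libraries with the diet comparison. Plau rose and Serpina1b fell in each of them. Of the marker lists, Kupffer cell markers passed 3 higher and 2 lower of 8, stellate cell and fibroblast markers 3 higher of 10 and red blood cell markers 2 higher of 5. Red blood cell markers summed to 306 to 586 CPM in CON-GFP, 283 to 488 in FPC-GFP and 528 to 2559 in FPC-LIPA. Within FPC-LIPA the sum was 1732 to 2559 CPM in mice 36, 37 and 39 and 528 to 947 CPM in mice 31, 33 and 34. The part of these cells in the members' values was not tested.

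Plau ranged from 3.85 to 8.04 CPM in FPC-LIPA (median 5.64, mean 5.91 ± 1.53), above each FPC-GFP mouse (1.80 to 3.30 CPM, mean 2.60 ± 0.721). The change was 1.25 ± 0.25 (adjusted p = 0.0118). It also passed without FPC-LIPA 36, 37 and 39, whose levels of 3.85 to 8.04 CPM enclose the 5.06 to 5.99 CPM of the other 3. Among 22 alternatives at the same threshold it was lost in 1, the fit of libraries with S numbers from 55 to 68 (1.05 ± 0.24, adjusted p = 0.0628). That setting leaves out FPC-LIPA 37 and FPC-GFP 20 here, and FPC-GFP 20 and CON-GFP 1 and 2 in the diet comparison. Monocyte and macrophage markers again moved with it, 5 of 10 passing higher, and their part in the increase was not tested.

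Tfpi, the inhibitor of factor VIIa with tissue factor, was 5.13 to 7.92 CPM in FPC-GFP (median 6.64, mean 6.45 ± 1.01) and 5.49 to 23.5 CPM in FPC-LIPA (median 10.7, mean 12.4 ± 6.18). FPC-LIPA 37 was highest, and the groups overlapped, at 1.02 ± 0.29 (adjusted p = 0.0295). In FPC-LIPA, mice 36, 37 and 39 had 9.55 to 23.5 CPM and mice 31, 33 and 34 had 5.49 to 10.7 CPM, and without the first 3 the change was 0.48 ± 0.22 (adjusted p = 0.270). The call was also lost without any 1 of FPC-GFP 11, 12, 13, 16 and 20 and FPC-LIPA 36 and 37 (adjusted p from 0.0538 to 0.0665). Of 10 endothelial markers none passed in this comparison. Thbd, the receptor on which thrombin activates protein C, came close at 1.01 ± 0.35 (adjusted p = 0.0509). FPC-LIPA 37 had 13.9 CPM of Thbd and the other 5 mice of its group had 3.60 to 5.88.

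Serpine2, which inhibits thrombin and urokinase, was 3.47 to 13.8 CPM in FPC-GFP (median 8.27, mean 8.27 ± 4.38) and 2.23 to 4.78 CPM in FPC-LIPA (median 2.83, mean 3.04 ± 0.9003). The groups overlapped, with a change of -1.40 ± 0.35 (adjusted p = 0.0196). CON-GFP mice were spread more widely, from 5.79 to 31.2 CPM (median 13.2, mean 16.5 ± 10.8). Leaving out any 1 mouse kept the call. It was lost without FPC-LIPA 36, 37 and 39 together (-1.33 ± 0.47, adjusted p = 0.156), whose levels of 2.52 to 3.07 CPM lay within the range of the other 3.

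Plasminogen was 548 to 1199 CPM in FPC-LIPA (median 733, mean 819 ± 291), below the lowest FPC-GFP mouse at 1204 CPM, and changed by -0.73 ± 0.21 (adjusted p = 0.0306). Serpina1b was 1125 to 3924 CPM in FPC-LIPA (median 2365, mean 2474 ± 1093) against 3768 to 4868 CPM, with overlap, at -0.80 ± 0.26 (adjusted p = 0.0417). In both genes FPC-LIPA 36, 37 and 39 were the low mice, with 548 to 630 CPM of Plg against 836 to 1199 in the other 3, and 1125 to 2139 CPM of Serpina1b against 2591 to 3924. Without them the changes were -0.39 ± 0.15 for Plg (adjusted p = 0.197) and -0.39 ± 0.16 for Serpina1b (adjusted p = 0.213). Leaving out 1 mouse ended the Plg call for FPC-GFP 11, 12, 13, 16 and 20 and FPC-LIPA 36, 37 and 39 (adjusted p from 0.0538 to 0.0718), and the Serpina1b call for each mouse except FPC-LIPA 33 and 34 (adjusted p from 0.0545 to 0.0884). Serpina1a (-0.69 ± 0.24, adjusted p = 0.0532) and Serpina1d (-0.85 ± 0.32, adjusted p = 0.0684) did not pass. Hepatocyte markers, of which 1 of 9 passed, lower, overlapped between the FPC groups in their sum.

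**Figure D5:**
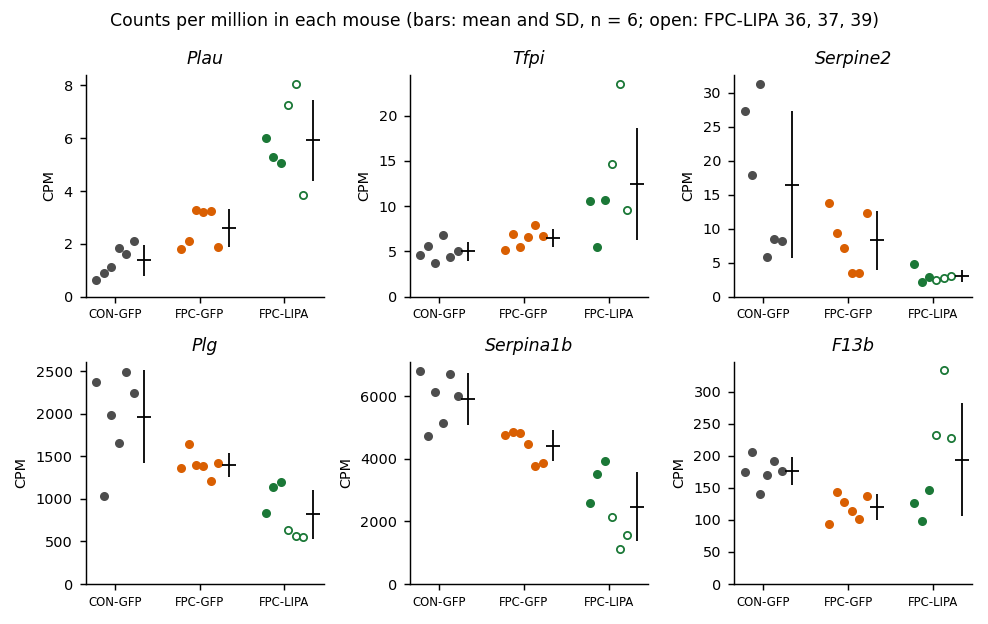
CPM in each mouse for the 5 members that passed in FPC-LIPA against FPC-GFP (Plau, Tfpi, Serpine2, Plg and Serpina1b) and for F13b, which did not, with the mean and SD of 6 mice and open circles for FPC-LIPA 36, 37 and 39. Plau is higher in all FPC-LIPA mice, and the open circles are the low ones in Plg and Serpina1b and the high ones in F13b.

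The split within FPC-LIPA ran through other members as well. FPC-LIPA 36, 37 and 39 had 228.1 to 334 CPM of F13b, against 97.7 to 146 in mice 31, 33 and 34, and 244 to 279 CPM of Serpina10, against 138 to 173. They were lower in F12 (132 to 178 against 299.9 to 423 CPM), in Proc (171 to 207 against 326 to 406 CPM) and in Plaur (0.261 to 0.861 against 1.89 to 2.33 CPM). None of these 5 passed between the groups, where F13b had 0.78 ± 0.29 (adjusted p = 0.0619), Serpina10 0.59 ± 0.23 (adjusted p = 0.0789), F12 -0.74 ± 0.26 (adjusted p = 0.0532), Proc -0.63 ± 0.22 (adjusted p = 0.0516) and Plaur 0.17 ± 0.48 (adjusted p = 0.816). Fga was also lower in FPC-LIPA 36, 37 and 39. So were F2 (826 to 940 against 982 to 1484 CPM) and Serpina1d (210 to 529 against 650 to 1213 CPM). Klkb1 was higher (105 to 190 against 76.9 to 101 CPM). The number of members passing moved with the mice included, as did the share of all genes passing. The member count was 15 without FPC-LIPA 33 (38% of all genes) and 12 without FPC-LIPA 34 (27%). It was 3 without FPC-GFP 11 (9.46%) or FPC-LIPA 39 (8.36%). It was 2 without FPC-LIPA 36 (7.41%), FPC-LIPA 37 (9.83%) or any 1 of FPC-GFP 12, 13, 16 and 20 (8.78% to 12%). Without FPC-LIPA 36, 37 and 39 the member count was 1, Plau, beside 1.22% of all genes. With S numbers from 55 to 68, which leaves out FPC-LIPA 37 and FPC-GFP 20, none passed, beside 0.706% of all genes.

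The rest of the pathway was read from 2 further lists. Of 5 genes of the vitamin K cycle and factor secretion (Vkorc1, Vkorc1l1, Ggcx, Lman1 and Mcfd2), all tested, none passed in either comparison, with medians of -0.04 and 0.03. Of 26 other coagulation and fibrinolysis genes, 21 were tested, and 12 passed with diet, 7 higher and 5 lower (median -0.10). The increases included those of Anxa2 (2.06 ± 0.42, adjusted p = 0.00352), a plasminogen receptor subunit, and of Thbs1 (1.64 ± 0.40, adjusted p = 0.00919). The largest decreases were those of Serpina1c (-1.07 ± 0.20, adjusted p = 0.00231), another alpha-1 antitrypsin copy, of C4bp (-0.77 ± 0.12, adjusted p = 0.000963) and of Hgfac (-0.61 ± 0.14, adjusted p = 0.00779). With all 18 libraries in one fit, Thbs1 (adjusted p = 0.0694) and Hgfac (adjusted p = 0.113) did not pass. With LIPA 6 of the 21 passed, 2 higher and 4 lower (median -0.30). Fgl2, a membrane prothrombinase, rose by 2.11 ± 0.42 (adjusted p = 0.0118), and by 1.49 ± 0.25 (adjusted p = 0.0134) without FPC-LIPA 37. Tfpi2 measured 46.6 to 68.8 CPM in FPC-GFP and 38.2 to 410.3 CPM in FPC-LIPA, highest in mouse 37, with a change of 1.64 ± 0.47 (adjusted p = 0.0287). That call was lost without FPC-LIPA 37 (0.97 ± 0.33, adjusted p = 0.0665), without FPC-LIPA 36, 37 and 39 (0.16 ± 0.19, adjusted p = 0.695) and without any 1 of FPC-GFP 11, 12, 13, 16 and 20 and FPC-LIPA 36 and 39 (adjusted p from 0.0532 to 0.0605). Serpina1e, a further alpha-1 antitrypsin copy, was 40.5 to 2061 CPM in FPC-GFP, highest in mouse 20, and 17.4 to 40.9 CPM in FPC-LIPA, with overlap. Its change was -4.27 ± 0.85 (adjusted p = 0.0122), and -3.34 ± 0.70 (adjusted p = 0.0351) without FPC-GFP 20. Serpina1c fell as well (-1.02 ± 0.30, adjusted p = 0.0319), a call lost without any 1 of FPC-GFP 11, 12, 13 and 20 and FPC-LIPA 36 and 39 (adjusted p from 0.0562 to 0.0743). Masp1, a protease of the lectin pathway, had -0.63 ± 0.21 (adjusted p = 0.0470), lost without any 1 mouse except FPC-LIPA 31, 33 and 34 (adjusted p from 0.0643 to 0.102). Without FPC-LIPA 36, 37 and 39 the calls of Serpina1e (adjusted p = 0.110), Serpina1c (adjusted p = 0.207) and Masp1 (adjusted p = 0.288) were lost, and with S numbers from 55 to 68 so were these 3 and that of Tfpi2 (adjusted p from 0.0628 to 0.132).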

How the data were processed

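RNA from 18 mouse livers was sequenced as paired reads. The authors trimmed the reads, mapped them with HISAT2 2.1.0 to GRCm38 (mm10) and assigned them to genes with Feature Counts, and the deposited values are raw counts with no normalization. A stranded and an unstranded kit are both named, and which was used for which library, the strand setting, the annotation version and the treatment of multimapping reads are not given in the sources used here. Another 5 columns of the table were not used here.

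Genes were filtered with filterByExpr, scaled by TMM and tested with the quasi-likelihood test of edgeR 4.0.16 (R 4.3.3), with the 12 libraries of each comparison alone and Benjamini-Hochberg adjustment over all tested genes. The SE is the log2 fold change divided by the square root of F. TPM used union exon lengths from GENCODE M21, without TMM. Each library is 1 mouse, and errors are over mice. Depth was at least 16632146 counts per library. For members with few counts, such as Plaur and Plat, counting error adds to the spread between mice. Promoters came from RefSeq (GRCm38.p6, 31 of 39 members found), and no promoter of the other 8 is shown. The procedure was tested on simulated data.

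The members and lists were chosen with earlier results of these data known. All members are described by role, with full values for DE members, for up to 12 other passing members with the largest change in each comparison and for the member with the highest level of each role, and at most 3 increases and 3 decreases are named from the further lists, where some results are not reported here. Alternatives were DESeq2 1.42.0 (size factors and Wald test), upper-quartile factors, library size alone, no filter, a minimum of 1 CPM in 6 libraries, one fit over all 18 libraries, S numbers from 55 to 68, FPC-LIPA 36, 37 and 39 left out, removal of the gene length trend, each library left out, and other thresholds. Tables and plots were made with matplotlib 3.10.9, numpy 2.4.6 and pandas 2.3.3 under Python 3.11.15.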

Additional observations from a re-analysis of the deposited data

Results flagged for a closer look

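Within each group of 6 mice, 39 members were searched for a mouse far from the others (117 groups of values, of which chance flags about 1 in 20), and 6 were found. The highest FPC-GFP value of Fga was 5684 CPM and that of Fgb 5405 CPM, both in mouse 11, with the nearest mouse at 2940 and 2835 CPM. Thbd was 13.9 CPM in FPC-LIPA 37, with the nearest at 5.88 CPM. Serpina1d was lowest in FPC-GFP 19, at 849 CPM, with the nearest at 1293 CPM. F13a1 was 0.159 CPM in CON-GFP 6, with the nearest at 0.364 CPM, and F2rl1 was at 0 CPM in FPC-GFP 20, with the nearest at 0.308 CPM. The last 2 genes were below the filter on low counts.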

How the results depend on the processing

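For diet, 20 members passed, with 15 to 22 when 1 library was left out (17.1% to 24.7% of all genes). The count was 14 by library size alone (28.5% of all genes), 6 with all 18 libraries in one fit (9.04%) and 10 at an adjusted p under 0.01. The 3 DE members became 5 by library size alone, 1 with at least 1 CPM in 6 libraries (a filter that leaves out Plaur and Plat), 1 with all 18 libraries, 1 with S numbers from 55 to 68, 1 at an adjusted p under 0.01 and 9 at a fold change of at least 1.5. For LIPA, 5 members passed, with 2 to 15 when 1 library was left out (7.41% to 38% of all genes). The count was 2 by library size alone (9.84% of all genes), 13 by DESeq2 (30.2%), 3 without a filter (9.16%) and 14 with all 18 libraries (31.4%). It was 0 with S numbers from 55 to 68 (0.706%) and 1 without FPC-LIPA 36, 37 and 39 (1.22%). With the gene length trend removed it was 9 (19.2%), and at an adjusted p under 0.01 it was 0. The 3 DE members became 0, 1 and 0 under the S number, 36, 37 and 39, and 0.01 settings and 5 at 1.5-fold, with 2 to 6 when 1 library was left out. By library size alone the diet value of F12 turned to 0.0612 and that of Pros1 to 0.165. Without FPC-LIPA 36, 37 and 39 the LIPA values turned to -0.130 for F9, -0.142 for Klkb1 and -0.0146 for Pros1. None of these 5 had passed. Another 7 diet and 16 LIPA values near 0 changed sign by less than 1 SE. The calls of F11, F7, Klkb1, Serpind1 and Proz with diet were kept under each of 21 alternatives at a threshold of 0.05. The cause of these shifts was not tested. No paired analysis was possible because the groups share no replicate numbers.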
